A study of Mus musculus with 12 samples.

Results

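Differentiation of wild-type (WT) mouse embryonic stem cells (ESCs) was followed by comparing gene expression in differentiated cells at day 14 with that in undifferentiated ESCs. The comparison took in 6 of the 12 RNA-seq libraries of a study of *Snap29* knockout, namely WT replicates 1 to 3 of each day. All 6 came from J1, an ESC line of the 129S4/SvJae strain, so 1 line stands for the WT genotype. The undifferentiated cells (day 0) grew without feeder cells on gelatin in medium with fetal bovine serum and leukaemia inhibitory factor (LIF), a cytokine that keeps mouse ESCs from differentiating. The differentiated cells had LIF withdrawn, spent 3 days as embryoid bodies in hanging drops and a further 11 days on plates, where several bodies shared a well. Age of the cultures and aggregation in hanging drops therefore changed together with LIF. The study calls the libraries biological replicates but does not say that they were separate cultures, and if they shared 1 culture the p values reflect technical spread alone. A gene was a member of the comparison if it had at least 1 FPKM (fragment counts scaled by gene length and by the size of the library) in at least 3 of the 6 libraries. This held for 13172 of 55471 genes, of which 11381 were protein coding. A gene could enter through 1 group alone, and such a gene had to differ: 1075 members lay below 1 FPKM in all day 0 libraries and 356 in all day 14 libraries. At the edge of the rule, *Tub* entered with a third-highest value of 1.002 FPKM, and *Gm28151* was left out with 0.9999 FPKM.

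Mouse ESCs are held in a naive pluripotent state by LIF signalling and by a circuit of transcription factors around Oct4 (*Pou5f1*), Sox2 and Nanog. Without LIF, aggregated cells leave this state, pass through stages that resemble the epiblast and gastrulation, and give rise to derivatives of the 3 germ layers. Extraembryonic tissues, which include the trophoblast of the placenta and the endoderm of the yolk sac, separate from the epiblast lineage before or around implantation in the embryo. The RNA here came from whole cultures, so fewer cells of a type and less RNA of that type per cell cannot be told apart.

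The WT libraries held 16638790 to 19226488 assigned fragments, and 12098 to 13053 genes reached 1 FPKM in each. On the log2 scale the 3 day 0 libraries correlated with each other across genes at 0.986 in every pair. The day 14 libraries were further apart, at 0.977 for replicates 1 and 2, 0.958 for 1 and 3, and 0.947 for 2 and 3. The median gene had an SD of 0.087 between libraries at day 0 and 0.216 at day 14 (log2 scale, n = 3). Day 14 replicate 3 stood apart from the others. It lay at least 2-fold above both at 212 genes and at least 2-fold below both at 303, against 65 and 46 genes for replicate 1, and 72 and 107 for replicate 2.

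At the 2-fold threshold used here, more genes were called higher than lower at day 14, and large changes were mostly rises. Limma was run on log2(FPKM + 0.1) values. Calls required a Benjamini-Hochberg adjusted p below 0.05 together with a 2-fold difference or more. By this rule 2548 genes (19.3% of those tested) were higher and 1706 (13.0%) were lower at day 14. Both shares are the background for the counts of list members below. Members of a list are those that passed the filter, some through 1 day alone, so neither counts nor medians describe whole families. A change of at least 10-fold was seen in 614 genes that rose and 42 that fell. Of the genes that rose, 1009 had been below 1 FPKM in all 3 ESC libraries. Of those that fell, 290 ended below 1 FPKM in all 3 day 14 libraries. The groups did not overlap at 35.9% of genes with day 14 above and at 39.0% with day 14 below. Without the fold threshold, 4350 genes were higher and 4663 lower. The share of calls that were higher was 59.9%, but it depended on the scaling: it was 72.7% with TPM and 48.3% with quantile normalization, which moved the median log2 change of all genes from -0.06 to 0.16 and to -0.20. The TPM total includes the miRNA gene *Gm23935*, at 17303, 13692 and 79948 FPKM at day 0 and 8985, 12454 and 10611 FPKM at day 14. With TPM over genes of at least 200 bases, a setting added after seeing the data, the share was 67.8% and the median 0.06. Smaller changes are therefore relative to the scaling, and log2 changes are differences of means on the log2(FPKM + 0.1) scale, which understates the change of low genes.

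**Figure D1:**
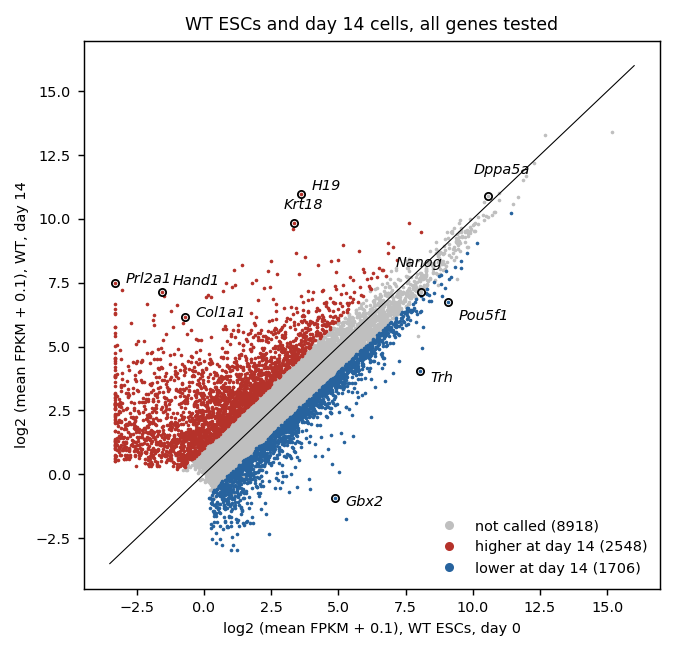
Mean FPKM of each of the 13172 genes in WT ESCs (horizontal axis) and in WT cells at day 14 (vertical axis), both as log2 of the mean of 3 libraries plus 0.1. Red points are the 2548 genes called higher, blue points the 1706 called lower, grey points the rest, and the line marks equal values. The red cloud reaches further from the line than the blue one.

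The 10 largest rises among annotated genes were led by genes of the placenta. *Prl2a1*, a member of the placental prolactin family, was listed at 0 FPKM in all ESC libraries and measured 214, 141 and 188 FPKM at day 14. Its relatives *Prl2c5* and *Prl7d1* went from 0 in all ESC libraries to 85.4, 167 and 54.9 FPKM and to 46.3, 90.9 and 23.9 FPKM. The placental cathepsin *Ctsj*, also at 0 before, reached 66.5, 123 and 47.9 FPKM. These rises were present in every day 14 library, with replicate 2 highest for *Prl2c5*, *Prl7d1* and *Ctsj*. *Serpinb9e*, a serine protease inhibitor of a mouse-expanded family, rose from 0 to 49.2, 77.9 and 36.3 FPKM. The chemokines *Ccl7* and *Ppbp* were at 0 in ESCs and measured 61.1, 29.01 and 179 FPKM, and 61.7, 61.2 and 108 FPKM. The surface protein gene *Psca* reached 129.8, 128 and 188 FPKM. *Hand1*, a basic helix-loop-helix factor required for trophoblast giant cells and for extraembryonic mesoderm, measured 0.378, 0.203 and 0.136 FPKM at day 0 and 142, 159.7 and 118 FPKM at day 14 (log2 change 8.74, SE 0.26, adjusted p = 1.77e-06).

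The 10 largest falls were smaller in fold and came from other classes of gene. *Gbx2*, a homeobox gene that acts downstream of LIF in mouse ESCs and later patterns the hindbrain border, measured 30.3, 28.5 and 27.99 FPKM at day 0 and 0.451, 0.483 and 0.322 FPKM at day 14 (log2 change -5.82, SE 0.15, adjusted p = 1.06e-06). *Fgf17*, a fibroblast growth factor ligand, measured 33.9, 31.6 and 32.6 FPKM at day 0 and 1.07, 1.22 and 0.622 FPKM at day 14, and *Etv4*, a transcription factor induced by FGF signalling, 45.5, 46.7 and 47.7 FPKM at day 0 and 2.96, 2.23 and 3.08 FPKM at day 14. *Trh*, which encodes the precursor of thyrotropin-releasing hormone, fell from 260.2, 255 and 264.4 FPKM to 22.8, 20.2 and 6.11 FPKM. No day 14 library of these genes came near an ESC library. Others were *Tcf15*, a factor linked to priming of ESCs (log2 change -4.01), *Pcyt1b*, an enzyme of phosphatidylcholine synthesis (-4.60), the neuronal filament gene *Ina* (-4.27), and the noncoding RNAs *Halr1* and *AV205837* (-4.59 and -4.74).

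Pluripotency factors fell, but several remained well above the detection limit at day 14. Of the 5 core factors 4 were called lower and 0 higher. *Pou5f1*, which encodes Oct4, measured 548, 526 and 551 FPKM at day 0 and 124, 98.2 and 98.8 FPKM at day 14 (log2 change -2.34, SE 0.10, adjusted p = 5.77e-06). Its partner *Sox2* measured 179, 191 and 214 FPKM at day 0 and 73.1, 50.8 and 54.3 FPKM at day 14 (log2 change -1.73, SE 0.15, adjusted p = 7.48e-05), and the nuclear receptor gene *Esrrb* 68.3, 65.98 and 65.5 FPKM at day 0 and 30.3, 24.5 and 20.4 FPKM at day 14. The Krüppel-like factor *Klf4* had the largest fall, from 43.7, 44.2 and 46.7 FPKM to 5.28, 3.87 and 5.73 FPKM (log2 change -3.17, SE 0.15, adjusted p = 7.33e-06). *Nanog* measured 273, 272 and 263 FPKM at day 0 and 168, 136 and 113 FPKM at day 14. Its change passed the test but stayed just under 2-fold, so it was not called (log2 change -0.98, SE 0.14, adjusted p = 7.43e-04). For all 5 genes every day 14 library lay below every ESC library.

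Of 25 genes of the wider naive network, 18 were called lower and 1 higher, and they were unequal. *Tdgf1*, a co-receptor for Nodal, fell from 280.4, 288 and 269 FPKM to 37.6, 38.2 and 17.4 FPKM (log2 change -3.25, SE 0.29, adjusted p = 9.20e-05), and *Utf1*, a chromatin factor of pluripotent cells, from 321, 324 and 355 FPKM to 111, 104.995 and 110.1 FPKM. *Zfp42*, which encodes Rex1 and is widely used as a marker of naive ESCs, measured 551, 522 and 584 FPKM at day 0 and 241, 166 and 189.7 FPKM at day 14 (log2 change -1.49, SE 0.14, adjusted p = 9.97e-05). *Sall4* and *Mycn*, a zinc finger factor and a Myc family gene, had log2 changes of -1.86 and -2.49. *Dppa5a*, an RNA-binding protein of pluripotent cells, went the other way in level, at 1540.3, 1489.9 and 1567 FPKM at day 0 and 2257, 1635 and 1816 FPKM at day 14, although the difference did not pass (log2 change 0.30, SE 0.12, adjusted p = 0.0589). *Dppa3*, which protects methylation marks in the early embryo and is expressed in germ cells, was the 1 gene of the network called higher, at 4.50, 3.70 and 3.65 FPKM at day 0 and 52.3, 41.0 and 29.3 FPKM at day 14 (log2 change 3.31, SE 0.21, adjusted p = 2.23e-05).

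*Dazl*, an RNA-binding protein of germ cells, rose too, from 4.90, 5.64 and 4.11 FPKM to 47.9, 39.6 and 26.3 FPKM (log2 change 2.90, SE 0.23, adjusted p = 5.32e-05). Of 12 germ cell genes tested 2 were higher and 3 lower, beside 19.3% and 13.0% of all genes. The other gene called higher was *Taf7l*, a TAF paralog of the testis, at 1.37, 1.57 and 1.67 FPKM at day 0 and 2.94, 4.005 and 3.23 FPKM at day 14, a log2 change of 1.08 that was 0.96, and not called, without day 14 replicate 2. *Ddx4*, the Vasa helicase, was called lower, at 16.5, 17.04 and 16.1 FPKM at day 0 and 4.91, 4.81 and 4.02 FPKM at day 14. Of 10 genes of the formative and primed epiblast 6 were lower and 0 higher (1 higher without day 14 replicate 3). *Otx2*, a driver of exit from the naive state, measured 6.91, 7.46 and 6.998 FPKM at day 0 and 13.2, 16.3 and 9.84 FPKM at day 14, higher at day 14 in all libraries but not called (log2 change 0.84, SE 0.18, adjusted p = 0.00495). *Dnmt3b*, a methyltransferase of the epiblast, fell by 1.23 on the log2 scale. Of 14 genes of DNA methylation and its removal 7 were lower and 1 higher. The dioxygenase genes *Tet1* and *Tet3* changed in opposite directions. *Tet1* fell from 43.6, 42.2 and 38.9 FPKM to 7.11, 7.09 and 3.07 FPKM (log2 change -2.93, SE 0.31, adjusted p = 1.99e-04). *Tet3* rose from 0.623, 0.663 and 0.572 FPKM to 2.60, 2.70 and 1.97 FPKM (log2 change 1.80, SE 0.18, adjusted p = 1.66e-04). *Tet1* stayed above *Tet3* in every day 14 library. Of 10 genes of the axis around the RNA-binding protein Lin28, a blocker of let-7 miRNA maturation, 5 were lower and 1 higher (3 and 2 with TPM). *Lin28a* fell from 104, 103 and 111 FPKM to 14.9, 14.7 and 7.78 FPKM.

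**Figure D2:**
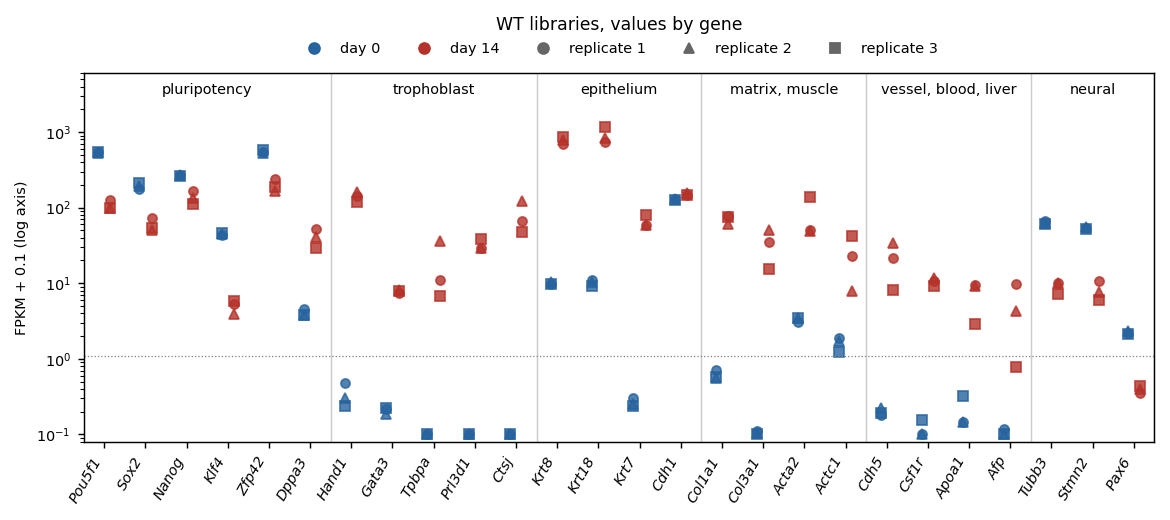
FPKM plus 0.1 (log axis) of 26 genes in each WT library, with blue points for day 0, red points for day 14 and the marker shape for the replicate. The dotted line marks 1 FPKM. *Pou5f1*, *Sox2*, *Nanog*, *Klf4* and *Zfp42* lay lower at day 14 yet above this line, *Tpbpa*, *Prl3d1* and *Ctsj* were at 0 in ESCs, and *Actc1*, *Cdh5* and *Afp* differed widely between the 3 day 14 libraries.

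Placental genes were near 0 in ESCs in many cases and abundant at day 14. In the list of placental hormones and proteases 25 genes were tested, and 23 were higher and 0 lower at day 14, with a median log2 change of 6.43 against -0.06 for all genes. Another 24 genes of the list stayed below the filter, and many members passed through day 14 alone and had to rise. Neither the count nor the median therefore describes the whole family. *Prl3d1*, which encodes placental lactogen of giant cells, rose from 0 to 28.9, 29.02 and 38.4 FPKM. *Tpbpa*, a marker of the spongiotrophoblast, rose from 0 to 10.96, 36.5 and 6.78 FPKM, and *Prl3b1*, a later placental lactogen, from 0 to 6.66, 31.5 and 4.98 FPKM. Replicate 2 had the highest value of *Tpbpa* and *Prl3b1*, whereas *Prl3d1* was highest in replicate 3. *Plac1*, an X-linked placental gene, rose from 0 to 24.2, 34.3 and 12.1 FPKM. *Peg10*, an imprinted gene of retrotransposon origin that the mouse placenta needs, measured 11.4, 10.4 and 10.4 FPKM at day 0 and 441.2, 465 and 312 FPKM at day 14 (log2 change 5.21, SE 0.15, adjusted p = 1.77e-06), and *Syna*, the syncytin of the syncytiotrophoblast, 0.115, 0.172 and 0.188 FPKM at day 0 and 3.504, 3.04 and 2.07 FPKM at day 14.

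Of 15 transcription factors with roles in trophoblast 11 were higher and 2 lower (*Esrrb* and *Tbx3*, which also belong to pluripotent cells). *Gata3* measured 0.117, 0.0874 and 0.123 FPKM at day 0 and 7.38, 8.01 and 7.85 FPKM at day 14 (log2 change 5.23, SE 0.16, adjusted p = 1.87e-06), and its relative *Gata2* 1.08, 1.32 and 0.895 FPKM at day 0 and 8.85, 9.26 and 6.20 FPKM at day 14. *Dlx3*, a homeobox gene of the labyrinth, rose by 5.01 on the log2 scale. *Cdx2*, which specifies trophectoderm, stayed low, at 1.86, 2.47 and 1.06 FPKM from 0.0771, 0.128 and 0.0240 FPKM (log2 change 3.40, SE 0.40, adjusted p = 3.31e-04). *Gcm1*, the switch of the syncytiotrophoblast, and *Elf5* and *Eomes*, regulators of trophoblast stem cells, remained below the filter. *Gcm1* measured 0.225, 0.112 and 0.105 FPKM at day 0 and 0.396, 0.116 and 0.266 FPKM at day 14, and *Eomes* 0.629, 0.446 and 0.653 FPKM at day 0 and 1.05, 1.13 and 0.939 FPKM at day 14.

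The starts of placental genes that rose are shown because most of these genes were at 0 in ESCs and lie in clusters on chromosome 13. RefSeq windows of GRCm38.p6 (mm10), from 250 bases before to 50 bases after the start of a gene, were found for 20 of the 23 genes. A GATA site, taken on either strand as AGATAA or AGATAG, or with a first T as TGATAA or the related TGATAG, was present in windows of 14 of these 20 genes (70.0%). The share was 23.9% of 1911 genes called higher and 33.0% of all 27025 genes with a window. The windows differ in base composition, with a median of 57.3% A and T in the placental set and 39.3% in genes called higher. They also share descent, since most belong to the prolactin and cathepsin clusters of chromosome 13. The part of these features in the share was not tested, and a match describes letters only. The windows of *Prl2c5* (chr13:13182466-13182765, plus strand), *Prl3d1* (chr13:27093939-27094238, plus strand) and *Ctsj* (chr13:61005876-61006175, minus strand) are given 5′ to 3′ in gene direction, with the GATA site in capitals as it reads on that strand:
Prl2c5: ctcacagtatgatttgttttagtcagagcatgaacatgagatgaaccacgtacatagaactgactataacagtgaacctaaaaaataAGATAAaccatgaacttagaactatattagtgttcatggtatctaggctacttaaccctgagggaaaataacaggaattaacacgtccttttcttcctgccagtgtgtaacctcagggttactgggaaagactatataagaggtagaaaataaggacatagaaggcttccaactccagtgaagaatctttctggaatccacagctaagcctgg
Prl3d1: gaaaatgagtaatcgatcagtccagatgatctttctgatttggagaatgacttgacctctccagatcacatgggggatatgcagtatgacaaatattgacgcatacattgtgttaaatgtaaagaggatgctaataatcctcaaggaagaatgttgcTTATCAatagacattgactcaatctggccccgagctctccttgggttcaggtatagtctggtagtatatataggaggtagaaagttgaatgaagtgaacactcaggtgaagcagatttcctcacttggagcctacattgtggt
Ctsj: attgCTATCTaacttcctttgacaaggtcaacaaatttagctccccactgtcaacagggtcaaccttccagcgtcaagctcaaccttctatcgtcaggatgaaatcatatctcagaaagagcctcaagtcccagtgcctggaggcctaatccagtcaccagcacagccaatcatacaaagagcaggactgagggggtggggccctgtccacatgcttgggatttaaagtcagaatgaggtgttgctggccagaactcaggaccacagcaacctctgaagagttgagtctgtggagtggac
In *Prl2c5* the letters are AGATAA, 157 bases before the gene start. In *Prl3d1* they are TTATCA, which is TGATAA on the other strand, 87 bases before it. In *Ctsj* they are CTATCT, which is AGATAG on the other strand, 240 bases before it.

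Epithelial genes formed a second large group. Of 30 keratins, junction genes and their regulators 22 were higher and 1 lower (2 lower without ESC replicate 2 or day 14 replicate 1 or 2), with a median log2 change of 2.88. *Krt8* measured 9.53, 10.3 and 9.68 FPKM at day 0 and 699, 779.8 and 870.2 FPKM at day 14 (log2 change 6.30, SE 0.09, adjusted p = 2.56e-07) and its partner *Krt18* 10.8, 10.4 and 9.18 FPKM at day 0 and 745, 825 and 1176 FPKM at day 14 (log2 change 6.46, SE 0.17, adjusted p = 1.34e-06). Together these form the filaments of simple epithelia. *Krt19* and *Krt7* reached 279.8, 327 and 274 FPKM, and 59.3, 58.3 and 79.1 FPKM. The claudins *Cldn4* and *Cldn3*, proteins of tight junctions, rose from 18.1, 18.2 and 20.5 FPKM to 237, 219 and 433 FPKM and from 1.20, 1.80 and 2.03 FPKM to 48.5, 53.97 and 52.7 FPKM. Keratins of stratified epithelium were present at lower levels, with *Krt5* at 7.08, 16.2 and 3.35 FPKM and *Krt14* at 13.4, 11.6 and 9.05 FPKM. A pair of adhesion genes that ESCs already express were not called: *Cdh1*, the epithelial cadherin, measured 132, 128 and 127 FPKM at day 0 and 148, 155 and 146 FPKM at day 14 (log2 change 0.22, SE 0.06, adjusted p = 0.0147), and *Epcam* 52.4, 53.2 and 50.9 FPKM at day 0 and 74.4, 74.7 and 63.4 FPKM at day 14. These keratins are shared by trophoblast and by embryonic epithelia, and their source was not tested.

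Mesenchymal and matrix genes rose in parallel. Of 30 genes of fibrillar collagen and matrix 26 were higher and 0 lower, beside 19.3% and 13.0% of all genes, with a median log2 change of 3.31. Another 13 listed genes stayed below the filter. Members such as *Col1a2* and *Col3a1* passed through day 14 alone and had to rise, so the count and the median describe only the members tested. *Col1a1* measured 0.602, 0.459 and 0.472 FPKM at day 0 and 76.4, 61.6 and 74.3 FPKM at day 14 (log2 change 6.86, SE 0.14, adjusted p = 4.64e-07), *Col1a2* 0.0515, 0.0840 and 0.0699 FPKM at day 0 and 10.96, 12.2 and 16.4 FPKM at day 14, and *Col3a1* 0.0118, 0.00591 and 0 FPKM at day 0 and 35.3, 49.9 and 15.4 FPKM at day 14. *Thbs1*, a matricellular glycoprotein, rose from 1.11, 1.28 and 0.921 FPKM to 82.9, 67.5 and 218 FPKM. Replicate 3 was highest for *Thbs1* and lowest for *Col3a1*. The collagen chaperone *Serpinh1* rose from 32.4, 29.4 and 28.1 FPKM to 227, 245 and 258 FPKM (log2 change 3.02, SE 0.08, adjusted p = 1.55e-06). The basement membrane collagens *Col4a1* and *Col4a2* rose further in level, from 3.59, 3.91 and 3.62 FPKM to 181, 180.2 and 229.9 FPKM and from 1.95, 1.56 and 1.501 FPKM to 165, 159 and 222 FPKM. These head a list of parietal endoderm genes of which 11 of 13 were higher and 0 lower, which also holds *Sparc* (335, 343 and 598 FPKM at day 14) and the thrombin receptor *Thbd* (11.2, 12.9 and 15.6 FPKM). Of 17 genes linked to epithelial-mesenchymal transition 16 were higher and 0 lower, the transcription factors *Snai1* and *Twist2* among them (log2 changes 4.39 and 5.27). Of 9 integrins 7 were higher, with *Itgb1* at 76.0, 75.5 and 70.8 FPKM at day 0 and 174, 199 and 247 FPKM at day 14, and 1 lower, *Itga9*, which was not called without day 14 replicate 3 (log2 change -0.96). Epithelial and mesenchymal genes were thus higher in the same cultures.

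Contractile genes were higher in part, while several cardiac and smooth muscle markers stayed below the filter. Of 14 smooth muscle genes 9 were higher and 0 lower. *Acta2*, smooth muscle actin, measured 2.99, 3.38 and 3.41 FPKM at day 0 and 50.5, 49.4 and 137 FPKM at day 14 (log2 change 4.38, SE 0.38, adjusted p = 8.07e-05), and *Tpm1*, a tropomyosin, 22.4, 21.5 and 19.9 FPKM at day 0 and 112, 116 and 217 FPKM at day 14. *Cav1*, a component of caveolae, rose from 0.0169, 0.0337 and 0 FPKM to 10.2, 11.9 and 11.3 FPKM. *Cnn1* did not pass, at 1.74, 2.16 and 1.94 FPKM at day 0 and 0.758, 1.56 and 2.29 FPKM at day 14, and *Tagln* and *Myh11*, markers of differentiated smooth muscle, stayed below the filter. Of 26 sarcomere and calcium genes 15 were higher and 2 lower. *Actc1*, cardiac actin, measured 1.80, 1.61 and 1.14 FPKM at day 0 and 23.1, 7.86 and 41.6 FPKM at day 14 (log2 change 3.63, SE 0.56, adjusted p = 0.00112), and *Acta1*, skeletal actin, 2.95, 3.59 and 3.22 FPKM at day 0 and 18.2, 16.1 and 53.2 FPKM at day 14. *Nppb*, a natriuretic peptide induced in heart and by stretch, rose from 0.149, 0.148 and 0 FPKM to 9.998, 9.49 and 18.7 FPKM. *Tnnt2*, cardiac troponin T, stayed below the filter at 1.42, 0.642 and 1.99 FPKM, *Nkx2-5* was at 0.731, 0.473 and 0.844 FPKM, and *Myh6* went from 1.84, 1.88 and 2.02 FPKM to 1.61, 0.668 and 0.558 FPKM. *Myh6* was called lower with all libraries (log2 change -1.08, adjusted p = 0.0316). It was not called without ESC replicate 1, 2 or 3 (-1.10, -1.09 and -1.04) or without day 14 replicate 2 or 3 (-0.92 and -0.81). Of the 2 called lower in this list the other was *Casq1*, a calcium store protein of skeletal muscle, with a log2 change of -2.40. Of 7 cardiac transcription factors 5 were higher and 0 lower (1 lower without ESC replicate 3 or day 14 replicate 1), with *Hand1* far ahead of *Hand2* (2.79, 2.01 and 2.26 FPKM) and *Irx4* (3.20, 3.39 and 1.31 FPKM). *Myog*, a regulator of skeletal muscle fusion, rose from 0.156, 0.233 and 0.218 FPKM to 7.38, 2.37 and 16.2 FPKM, while *Mymx*, a membrane peptide of myoblast fusion, fell from 83.9, 84.2 and 76.6 FPKM to 10.95, 11.97 and 8.87 FPKM.

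Actin genes carry a CArG box, the site of serum response factor, near their start, and 2 such windows are given because both genes rose and both were highest in day 14 replicate 3. The box was found, on either strand, in windows of 3 of 12 sarcomere genes called higher for which a window existed (25.0%), *Acta1*, *Actc1* and *Myl3*. The share was 22.7% (5 of 22) of all sarcomere genes tested, which includes *Ldb3* and *Myl7*, not called, and is thus similar whether or not a gene was called. It was 1.73% of all genes called higher and 1.81% of all genes. The windows of *Acta1* (chr8:123894726-123895025, minus strand) and *Actc1* (chr2:114052826-114053125, minus strand), from the same RefSeq build and with the box in capitals, are:
Acta1: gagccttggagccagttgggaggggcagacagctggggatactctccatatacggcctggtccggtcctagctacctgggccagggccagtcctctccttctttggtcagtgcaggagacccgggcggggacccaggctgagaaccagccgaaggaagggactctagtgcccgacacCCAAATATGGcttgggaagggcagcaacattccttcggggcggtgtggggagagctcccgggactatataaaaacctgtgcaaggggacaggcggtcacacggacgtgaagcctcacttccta
Actc1: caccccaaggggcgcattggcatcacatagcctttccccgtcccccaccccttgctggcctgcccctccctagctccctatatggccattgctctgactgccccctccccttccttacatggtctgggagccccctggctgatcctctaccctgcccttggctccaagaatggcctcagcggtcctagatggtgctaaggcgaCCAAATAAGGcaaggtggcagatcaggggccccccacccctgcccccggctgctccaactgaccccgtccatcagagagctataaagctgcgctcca
The boxes lie 63 and 37 bases before the gene start. *Acta2* had no match in its window, which says only that these letters are not in those bases.

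Markers of vessels, blood and macrophages rose in part. Of 9 endothelial genes 3 were higher and 2 lower, beside 19.3% and 13.0% of all genes. *Cdh5*, the cadherin of endothelial junctions, measured 0.0830, 0.124 and 0.0904 FPKM at day 0 and 21.3, 33.7 and 7.95 FPKM at day 14 (log2 change 6.50, SE 0.49, adjusted p = 4.32e-05), and *Flt1*, a receptor for VEGF, 0.116, 0.0558 and 0.0402 FPKM at day 0 and 3.60, 4.44 and 4.66 FPKM at day 14. Both are also known from trophoblast in the mouse. *Kdr*, the main VEGF receptor, stayed below the filter at 0.907, 1.03 and 0.538 FPKM. *Pecam1*, which ESCs express, measured 13.7, 14.01 and 13.3 FPKM at day 0 and 15.8, 13.7 and 9.55 FPKM at day 14. The lower calls of this list, *Tek* and *Robo4*, were not made without day 14 replicate 3 (log2 changes -0.82 and -0.94), and that of *Tek* also not without ESC replicate 2 or day 14 replicate 2 (-0.91 and -0.97). *Csf1r*, the receptor of macrophage colony stimulating factor, rose from 0, 0 and 0.0564 FPKM to 10.7, 11.7 and 9.12 FPKM (log2 change 6.50, SE 0.24, adjusted p = 3.67e-06), yet the leukocyte gene *Ptprc* measured 0.0179, 0.0131 and 0.0465 FPKM and the macrophage gene *C1qa* 0.105, 0 and 0.144 FPKM at day 14. Of the 4 macrophage and leukocyte genes tested 2 were higher, *Csf1r* and the lysosomal glycoprotein gene *Cd68* (log2 change 2.68), and 2 lower, *Laptm5* and *Coro1a*, a lysosomal membrane protein and an actin-binding protein of leukocytes (-2.23 and -1.66). The ligand of Csf1r, *Csf1*, rose as well, from 0.220, 0.340 and 0.278 FPKM to 36.9, 33.3 and 63.7 FPKM. Embryonic globins were scarce, with *Hbb-bh1* at 0.534, 0.468 and 3.27 FPKM and *Hba-x* at 0.116, 0.306 and 0.587 FPKM, and *Gata1* and *Alas2* were below the filter.

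Few endoderm genes passed the filter. Of 17 further endoderm factors beside those tested, including *Sox17*, *Foxa2*, *Gata4* and *Hnf4a*, none reached the filter, and of 3 tested 2 were higher (*Elf3* and *Cdx2*). With a filter of 0.1 FPKM 10 endoderm factors were called higher. The yolk sac and liver genes *Afp* and *Ttr* were at 0 or nearly so in ESCs and measured 9.55, 4.17 and 0.684 FPKM, and 7.27, 3.87 and 0.633 FPKM, at day 14, in both cases highest in replicate 1 and under 1 FPKM in replicate 3. Of 11 yolk sac and liver genes tested 4 were higher and 2 lower, with a median log2 change of 0.11. The lower ones were *Trf*, transferrin, and *Lrp2*, the endocytic receptor megalin (log2 changes -1.40 and -1.34). *Apoa1*, an apolipoprotein made by both tissues, rose in all libraries, from 0.0470, 0.0469 and 0.220 FPKM to 9.32, 9.05 and 2.79 FPKM (log2 change 5.05, SE 0.54, adjusted p = 2.04e-04). *Alb*, the albumin gene, measured 0.0233, 0.0204 and 0.0214 FPKM at day 14.

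Most neuronal genes that passed the filter fell. ESCs held RNA of several of them, and of 11 neuron and glia genes tested 9 were lower and 2 higher, beside 13.0% and 19.3% of all genes. Another 21 listed genes stayed below the filter. Members that ESCs express could pass through day 0, where they are high, so the count does not describe the whole list. *Tubb3*, the tubulin used as a neuron marker, measured 66.1, 62.7 and 60.5 FPKM at day 0 and 9.91, 10.1 and 7.13 FPKM at day 14 (log2 change -2.80, SE 0.14, adjusted p = 9.46e-06), *Stmn2* 53.7, 54.8 and 52.0 FPKM at day 0 and 10.7, 7.53 and 5.88 FPKM at day 14, and *Gap43*, a growth cone protein, 42.1, 36.99 and 38.9 FPKM at day 0 and 4.12, 9.58 and 4.53 FPKM at day 14. *Nefh*, a neurofilament gene, fell by 3.40 on the log2 scale. *Map2*, a microtubule protein of dendrites, and *Snap25*, a synaptic SNARE, lay below the filter on both days. *Mbp*, which encodes myelin basic protein and is also transcribed outside glia, rose from 0.247, 0.267 and 0.250 FPKM to 7.59, 8.08 and 8.41 FPKM, and *Syp* from 0.112, 0.178 and 0.198 FPKM to 1.33, 1.29 and 1.09 FPKM. Of 12 neural progenitor genes 5 were lower and 3 higher. *Pax6* and *Sox1* fell from 2.11, 2.22 and 2.06 FPKM to 0.252, 0.299 and 0.342 FPKM, and from 3.10, 3.08 and 3.57 FPKM to 0.339, 0.445 and 0.3004 FPKM. *Irx3*, also expressed in mesoderm, rose by 4.07 on the log2 scale. Of 39 Hox genes, which mark position along the body axis, 4 passed the filter and 2 were higher, *Hoxb4* (3.77, 3.52 and 3.82 FPKM at day 14, from 0.0453, 0 and 0.0423 FPKM) and *Hoxb9* (2.40, 1.99 and 5.23 FPKM). The count follows from the filter: with 0.1 FPKM in place of 1 FPKM 13 Hox genes were called higher, and with no filter 15.

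Signalling genes differed by family. Of 15 FGF genes 10 were lower and 3 higher, beside 13.0% and 19.3% of all genes. The ligand *Fgf4*, which drives ESCs out of the naive state, measured 52.4, 51.5 and 52.6 FPKM at day 0 and 24.97, 17.9 and 19.7 FPKM at day 14 (log2 change -1.33, SE 0.12, adjusted p = 1.11e-04), and the feedback inhibitors *Spry4* and *Spry2* fell from 23.4, 23.2 and 26.4 FPKM to 1.99, 1.47 and 2.15 FPKM and from 24.7, 25.7 and 26.6 FPKM to 4.997, 5.38 and 5.47 FPKM. The receptor *Fgfr2*, the FGF receptor of trophoblast, rose from 0.461, 0.438 and 0.536 FPKM to 7.63, 9.54 and 4.07 FPKM (log2 change 3.55, SE 0.31, adjusted p = 7.90e-05). Of 14 Nodal pathway genes 6 were lower and 1 higher (2 higher without day 14 replicate 3). The activin subunit *Inhbb* fell from 36.2, 36.5 and 38.8 FPKM to 2.37, 2.44 and 2.03 FPKM. *Nodal* itself measured 20.3, 20.6 and 19.98 FPKM at day 0 and 11.96, 8.65 and 8.27 FPKM at day 14, and its change came to -1.09 with all libraries and -0.99, under 2-fold, without day 14 replicate 3.

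Most calls among Wnt and BMP genes were higher. Of 32 Wnt genes 14 were higher and 2 lower, beside 19.3% and 13.0% of all genes. The lower calls numbered 1 without ESC replicate 1, 2 or 3 or day 14 replicate 3, and 4 without day 14 replicate 2. Among ligands *Wnt6* measured 0.318, 0.529 and 0.372 FPKM at day 0 and 81.6, 92.0 and 122 FPKM at day 14 (log2 change 7.61, SE 0.20, adjusted p = 1.34e-06), *Wnt7b* 0.854, 0.769 and 0.765 FPKM at day 0 and 19.4, 19.4 and 21.8 FPKM at day 14, and *Wnt9a* 0.314, 0.418 and 0.391 FPKM at day 0 and 15.04, 15.4 and 24.99 FPKM at day 14. Wnt7b is needed in the mouse placenta for fusion of chorion and allantois. Among receptors *Fzd2* rose from 3.74, 3.43 and 3.28 FPKM to 22.6, 20.4 and 52.7 FPKM, and *Fzd5* fell from 22.3, 22.9 and 23.05 FPKM to 7.38, 7.48 and 5.30 FPKM. The antagonist *Dkk1* rose by 5.08 on the log2 scale. The feedback target *Axin2* measured 1.30, 1.28 and 1.62 FPKM at day 0 and 2.72, 3.09 and 2.94 FPKM at day 14, a change of 1.01 that was 0.97, 0.96 and 0.97 without ESC replicate 1, ESC replicate 2 or day 14 replicate 2, and so not called. Of 17 BMP genes 11 were higher and 0 lower. *Bmp4*, a ligand of extraembryonic ectoderm, measured 2.95, 2.91 and 3.72 FPKM at day 0 and 11.1, 10.7 and 22.5 FPKM at day 14 (log2 change 2.09, SE 0.29, adjusted p = 6.76e-04), the antagonist *Nog* 0.274, 0.479 and 0.192 FPKM at day 0 and 9.15, 13.4 and 16.8 FPKM at day 14, and the target *Msx2* 0.372, 0.318 and 0.248 FPKM at day 0 and 19.03, 21.9 and 19.09 FPKM at day 14. The target *Id1* did not pass, at 53.6, 51.2 and 49.9 FPKM at day 0 and 53.8, 51.5 and 72.2 FPKM at day 14.

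Of 11 Hedgehog genes tested 3 were higher and 4 lower, beside 19.3% and 13.0% of all genes. The target *Gli1* fell from 15.4, 13.8 and 15.2 FPKM to 2.43, 2.95 and 1.52 FPKM, and the receptor and target *Ptch1* from 10.8, 10.9 and 11.3 FPKM to 4.34, 4.77 and 1.43 FPKM (log2 change -1.79, SE 0.42, adjusted p = 0.00776). The co-receptors *Gas1* and *Cdon* rose, from 0.687, 0.450 and 0.495 FPKM to 44.4, 55.1 and 33.6 FPKM (log2 change 6.10, SE 0.22, adjusted p = 3.11e-06), and from 2.37, 2.04 and 2.10 FPKM to 19.4, 20.9 and 13.99 FPKM. No Hedgehog ligand passed the filter. Of 12 retinoic acid genes 8 were higher and 2 lower: the degrading enzymes *Cyp26a1* and *Cyp26b1* rose by 3.76 and 4.08 on the log2 scale, and the receptors *Rara* and *Rarg* fell from 12.7, 12.8 and 14.5 FPKM to 4.63, 4.65 and 4.86 FPKM and from 34.1, 34.5 and 36.7 FPKM to 13.9, 13.4 and 14.8 FPKM. Of 12 IGF and insulin genes 11 were higher and 0 lower. *Igf2*, the fetal growth factor, measured 0.0711, 0.0405 and 0.0664 FPKM at day 0 and 24.1, 24.6 and 14.5 FPKM at day 14 (log2 change 7.02, SE 0.24, adjusted p = 2.74e-06), and the binding protein *Igfbp2* 199.6, 191 and 197 FPKM at day 0 and 763, 745 and 1238 FPKM at day 14. Of 11 Notch genes tested 2 were higher and 2 lower, beside 19.3% and 13.0% of all genes.

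Of 24 imprinted genes tested, which are expressed from 1 parental copy, 16 were higher and 0 lower, beside 19.3% and 13.0% of all genes. Their median log2 change was 1.77. Another 12 listed genes stayed below the filter, and members such as *Igf2* passed through day 14 alone and had to rise. The count and the median therefore describe only the members tested. *H19*, a noncoding RNA beside *Igf2*, measured 12.7, 12.1 and 11.8 FPKM at day 0 and 2126, 2143 and 1769.7 FPKM at day 14 (log2 change 7.35, SE 0.09, adjusted p = 2.56e-07) and was among the 10 most abundant transcripts at day 14. *Cdkn1c*, a cell cycle inhibitor, measured 5.02, 6.11 and 5.65 FPKM at day 0 and 323, 348 and 307 FPKM at day 14 (log2 change 5.84, SE 0.09, adjusted p = 2.56e-07). *Peg3* rose from 6.75, 6.36 and 5.96 FPKM to 107, 134 and 65.9 FPKM, and *Igf2r* from 13.2, 13.1 and 12.9 FPKM to 51.02, 49.95 and 37.7 FPKM. The genes of the *Dlk1* to *Meg3* cluster were an exception: *Dlk1* and *Rtl1* were listed at 0 in all 6 libraries, and *Meg3* measured 0.302, 0.230 and 0.185 FPKM at day 14. *Snrpn* measured 43.8, 38.1 and 41.7 FPKM at day 0 and 23.3, 19.4 and 19.9 FPKM at day 14 and was not called (log2 change -0.98, SE 0.10, adjusted p = 1.54e-04).

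Of 40 genes of DNA replication and mitosis 23 were lower and 0 higher, with a median log2 change of -1.20. The S phase cyclin *Ccne1* measured 108, 99.1 and 102 FPKM at day 0 and 25.5, 25.8 and 18.6 FPKM at day 14 (log2 change -2.16, SE 0.13, adjusted p = 2.05e-05), the helicase subunit *Mcm5* 243, 229 and 234 FPKM at day 0 and 72.1, 69.0 and 43.1 FPKM at day 14, and the mitotic kinase *Plk1* 103, 97.4 and 106 FPKM at day 0 and 41.0, 37.5 and 28.1 FPKM at day 14. Of 24 ribosome biogenesis genes 22 were lower and 0 higher (14 with TPM). *Ncl*, nucleolin, fell from 505, 514 and 496 FPKM to 175, 173 and 128 FPKM, and *Heatr1* from 61.4, 56.7 and 52.0 FPKM to 15.4, 14.3 and 9.55 FPKM. Of 55 ribosomal protein genes, by contrast, 1 was higher and 0 lower (0 higher without day 14 replicate 1, and 1 lower without day 14 replicate 3). Of 19 genes of G1 control, Myc and kinase inhibitors 6 were higher and 3 lower, beside 19.3% and 13.0% of all genes. Among inhibitors of cyclin-dependent kinases called higher, *Cdkn1a* measured 12.6, 11.6 and 12.9 FPKM at day 0 and 52.4, 46.2 and 89.4 FPKM at day 14 (log2 change 2.27, SE 0.23, adjusted p = 1.72e-04), *Cdkn2b* 1.05, 1.21 and 1.09 FPKM at day 0 and 27.2, 19.03 and 77.2 FPKM at day 14, and *Cdkn2a* 10.5, 8.70 and 10.7 FPKM at day 0 and 48.0, 39.7 and 96.9 FPKM at day 14. *Cdkn1b* and *Cdkn2d* were not called (log2 changes 0.52 and 0.45), and *Cdkn2c* stayed below the filter. *Trp53* fell from 160.0, 159.6 and 157 FPKM to 61.3, 61.8 and 52.6 FPKM, while 11 of 21 p53 targets, a list that includes *Trp53*, were higher and 2 lower (1 lower without ESC replicate 3 or day 14 replicate 2), *Mdm2* among the former (21.9, 23.01 and 21.996 FPKM at day 0 and 54.3, 47.4 and 70.99 FPKM at day 14). Day 14 replicate 3 had the highest value of the 3 libraries at 0 of the 40 cell cycle genes, and the highest value for *Cdkn1a*, *Cdkn2a* and *Cdkn2b*.

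Organelle and stress genes varied by class. Of 36 lysosome genes 23 were higher and 0 lower. The cathepsin proteases *Ctsb* and *Ctsl* measured 14.8, 14.5 and 14.4 FPKM at day 0 and 103, 114 and 119 FPKM at day 14 (log2 change 2.93, SE 0.08, adjusted p = 1.19e-06), and 17.1, 18.9 and 17.04 FPKM at day 0 and 74.3, 80.8 and 94.0 FPKM at day 14. Of 34 autophagy genes 8 were higher and 0 lower (14 higher with TPM), led by the cargo receptor *Sqstm1*, at 36.8, 34.9 and 37.2 FPKM at day 0 and 154, 156 and 200.3 FPKM at day 14 (log2 change 2.22, SE 0.11, adjusted p = 9.26e-06). Of 36 SNARE genes 8 were higher and 0 lower (1 lower without ESC replicate 3 or day 14 replicate 2), with *Stx11* at 0.221, 0.234 and 0.206 FPKM at day 0 and 4.15, 4.64 and 3.88 FPKM at day 14. Both shares are close to the 19.3% of all genes. *Snap29* measured 5.87, 6.59 and 5.51 FPKM at day 0 and 9.22, 9.88 and 8.09 FPKM at day 14 and was not called (log2 change 0.59, SE 0.12, adjusted p = 0.00343). Of 36 respiratory chain genes 1 was higher and 1 lower (0 lower without ESC replicate 2 or day 14 replicate 3), and of 25 proteasome genes 2 were higher and 2 lower. The glucose transporter *Slc2a1* rose from 117, 112 and 114 FPKM to 382, 329.6 and 492 FPKM, and *Hk2*, a hexokinase, fell from 41.9, 41.3 and 43.9 FPKM to 18.8, 17.8 and 15.8 FPKM. *Gapdh*, which has many processed pseudogenes that can take its reads, measured 138, 61.6 and 68.5 FPKM at day 0 and 22.5, 35.5 and 3.81 FPKM at day 14 and cannot be read as a level of the gene.

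Of 29 genes of antigen presentation and the interferon response 23 were higher and 0 lower. *H2-D1* and *B2m*, which form MHC class I, measured 2.68, 1.84 and 2.44 FPKM at day 0 and 43.04, 48.1 and 53.1 FPKM at day 14, and 12.6, 13.1 and 12.9 FPKM at day 0 and 82.2, 103 and 135 FPKM at day 14 (log2 change 3.01, SE 0.17, adjusted p = 1.41e-05). *Isg15*, an interferon-induced modifier, measured 0.0827, 0.0825 and 0.0772 FPKM at day 0 and 20.3, 32.7 and 57.9 FPKM at day 14. Of 17 chemokine, complement and cytokine genes 12 were higher and 0 lower, with *C3* at 27.6, 29.8 and 8.06 FPKM and *Ccl2* at 19.5, 10.3 and 41.1 FPKM at day 14. *Lif* itself rose from 0.762, 0.773 and 1.06 FPKM to 5.64, 5.42 and 8.62 FPKM (log2 change 2.77, SE 0.22, adjusted p = 5.70e-05). Among immediate early genes 12 of 16 were higher and 2 lower, with *Fos* at 0.890, 1.06 and 1.15 FPKM at day 0 and 25.03, 30.8 and 22.6 FPKM at day 14 and *Egr1* at 6.77, 7.17 and 8.17 FPKM at day 0 and 1.92, 2.37 and 3.18 FPKM at day 14. The heat shock gene *Cryab* rose from 2.36, 1.84 and 2.02 FPKM to 144, 111 and 509.7 FPKM. Cells of both days were trypsinized before RNA was taken, and the part of handling in these levels was not tested.

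**Figure D3:**
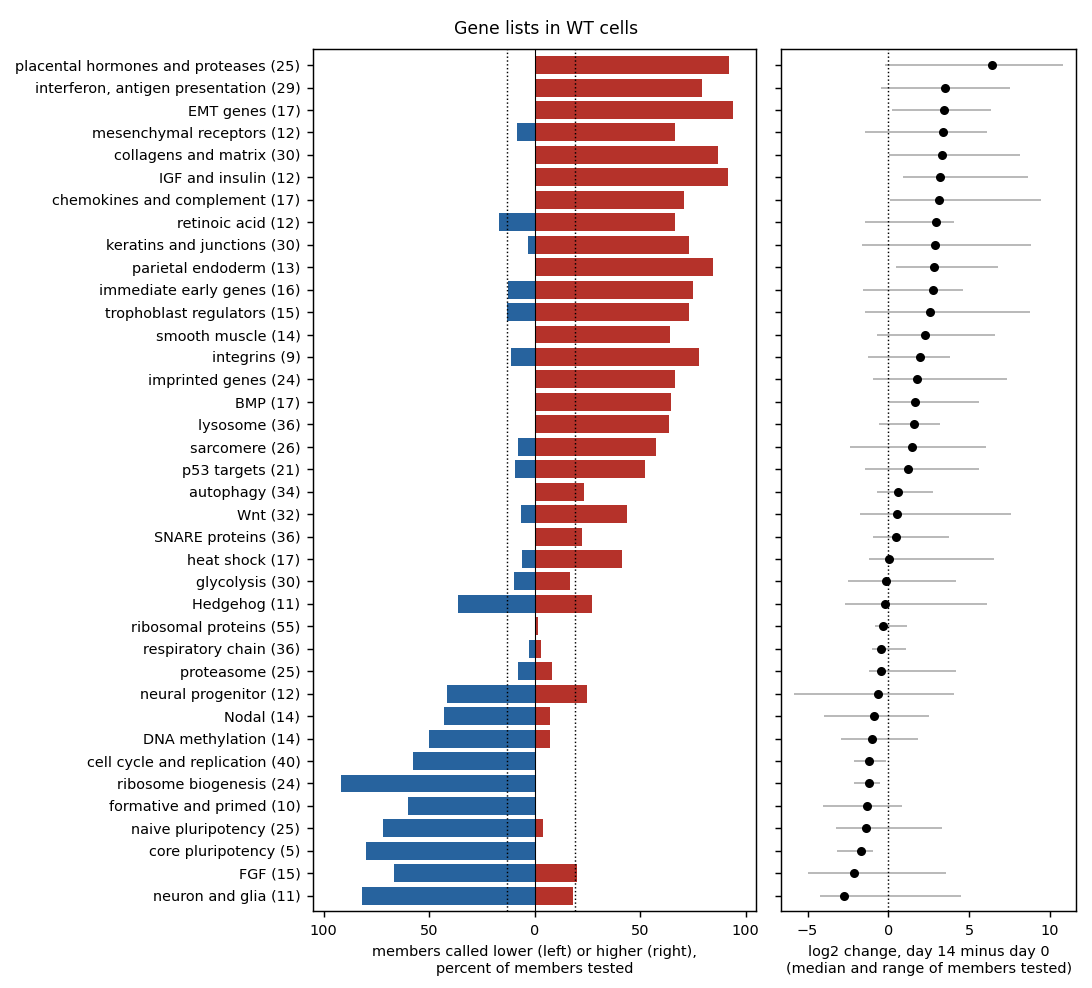
Left, percent of the tested members of 38 gene lists called higher (red, to the right) or lower (blue, to the left) at day 14, with dotted lines at 19.3% and 13.0%, the shares of all genes tested. Right, median log2 change (point) and range (line) of the same members, with a dotted line at the median of all genes. The number of members tested follows each name. Members are those that passed the filter, which some did through 1 day alone, so the medians describe only these members.

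The 3 day 14 libraries differed among themselves. Replicate 3 was highest for immediate early, smooth muscle and matrix genes and lowest for placental and cell cycle genes. Over the 25 placental genes the median deviation from the mean of the 3 libraries was -0.01 in replicate 1, 0.42 in replicate 2 and -0.42 in replicate 3 on the log2 scale. Over 16 immediate early genes it was -0.19, -0.14 and 0.35. Among genes with at least 10 FPKM on average, the widest spread was in *Prss35*, a serine protease relative, at 27.2, 4.07 and 138 FPKM. *Igfbp7*, a secreted IGF-binding protein of vessels and stroma, measured 119, 53.4 and 568 FPKM, *Plat*, tissue plasminogen activator, 12.6, 5.47 and 72.4 FPKM, and *Nupr1*, a stress-induced factor, 22.7, 6.01 and 98.3 FPKM. *Fxyd2*, *Ogn*, *Ifit3* and *Akr1b3* were also highest in replicate 3, at 22.9, 28.5, 24.8 and 109 FPKM against 1.18 to 27.3 FPKM in the others. The other wide genes were *Gapdh* and the short mitochondrial gene *mt-Nd4l*, which also varied between ESC libraries.

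Some genes appeared in 1 or 2 of the 3 day 14 libraries and so missed the filter. With under 1 FPKM in all ESC libraries, 146 genes reached 1 FPKM only in replicate 1, 198 only in replicate 2 and 325 only in replicate 3. Another 198 reached it in replicates 1 and 2 but not 3. Those found only in replicate 3 included *Pax2* of kidney and midbrain (0.394, 0.159 and 3.78 FPKM) and the globin *Hbb-bh1*. *Lyz2*, lysozyme of myeloid cells, was among 107 genes that reached it in replicates 1 and 3 but not 2 (3.61, 0.799 and 21.1 FPKM). In replicates 1 and 2 they included *Lum*, a proteoglycan of stroma (4.73, 4.06 and 0.695 FPKM), *Pdgfra*, a receptor of mesenchyme (2.37, 3.09 and 0.624 FPKM), *Afp* and *Ttr*. These differences between single libraries have no test.

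**Figure D4:**
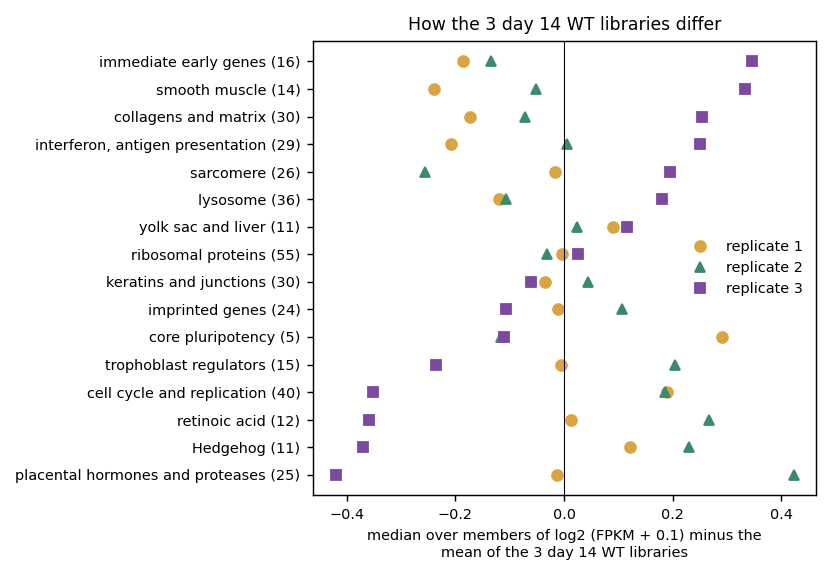
Median, over the tested members of 16 gene lists, of log2(FPKM + 0.1) in each day 14 WT library minus the mean of the 3 libraries. Circles, triangles and squares are replicates 1, 2 and 3, and the number of members follows each name. Replicate 3 lies at the far right for immediate early genes (0.35) and at the far left for placental genes (-0.42).

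The WT change was set beside that of *Snap29* knockout (KO) cells taken through the same protocol, only to see where it differs. The study took its transcriptome libraries from a single knockout clone, KO-2, so effects of the knockout and of the clone cannot be told apart. Over 14110 genes tested in all 12 libraries, the change differed by at least 2-fold at 671 genes (4.76%). Without WT day 14 replicate 3 the number was 1095. Of the 25 placental genes 17 rose less in KO cells, with a median difference of -3.63 on the log2 scale. List members were those that passed the filter in the WT libraries. Many placental members passed through WT day 14 alone, and a gene that rose only in KO cells could not enter. The count and the median therefore lean towards smaller rises in KO cells. *Ctsj* changed by 9.52 in WT and by 1.83 in KO cells (difference -7.69, SE 0.42, adjusted p = 1.15e-05), but *Prl3d1* changed by 8.32 and 4.81. The core pluripotency, cell cycle and ribosome biogenesis lists had 0 such genes of 5, 40 and 24, with median differences of 0.09, -0.05 and 0.27. Smooth muscle genes rose more in KO cells in 5 of 14 cases. *Acta2* changed by 4.38 in WT and by 8.12 in KO cells (difference 3.73, SE 0.47, adjusted p = 8.77e-04).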

How the data were processed

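Poly(A) RNA of 12 libraries was sequenced, 3 for each of WT and KO at day 0 and day 14. The authors deposited per-gene tables of FPKM. Per the labels and the study's methods, HISAT2 2.0.5 aligned reads to mm10, featureCounts 1.5.0-p3 counted them, and DESeq2 (version not given in the sources used here) was applied by the authors. FPKM scales each library by 1 divisor, so a few abundant genes can shift all others. Depth was read back from FPKM and gene length as whole fragments (within 0.001 of a whole number) and came to 16638790 to 19226488 fragments per WT library. The divisor was 1.004, 1.016 and 1.006 times these fragments in WT day 0 libraries, and 1.10, 1.09 and 1.09 times in WT day 14 libraries. Relative to scaling by assigned fragments, this lowers day 14 values. Limma with voom on these fragments, scaled by their own sum, gave 2823 genes higher and 1407 lower, with a median log2 change of 0.06. Of 66 pairs of libraries 0 were identical, and 0 sample columns were left unused.

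Genes reaching 1 FPKM in 3 or more of the 6 WT libraries were kept. The test was limma 3.58.1 in R 4.3.3, with a trended variance, on log2(FPKM + 0.1), with Benjamini-Hochberg adjustment over all genes, called at an adjusted p under 0.05 and at least 2-fold. KO minus WT differences used an interaction term over all 12 libraries. Lists were described by counts and medians. Python 3.11.15 with pandas 2.3.3 was used for tables and promoter searches. The fit was tested on simulated data.

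Named genes were the 10 largest rises and falls, up to 4 called members of a list with the smallest adjusted p plus the members a sentence is about, the core factors and cell type markers, the 10 widest at day 14 and the most abundant. Some genes that this rule names are not reported here. The members and lists were chosen with earlier results of these data known. Alternatives were other pseudocounts, filters, scalings, fold thresholds, voom, library weights, a replicate block and leaving out each library.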

Additional observations from a re-analysis of the deposited data

Results flagged for a closer look

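Genes named above were looked at again where the day 14 change of KO cells differed from that of WT cells by at least 2-fold with an adjusted p under 0.05 in the limma interaction test. Values are KO minus WT differences of the log2 change. The genes were named in the WT comparison, so those that changed in KO cells alone are missing. Groups held 3 libraries, so single libraries were not tested as outliers.

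Among genes that met this rule, placental hormones, proteases and related genes had negative differences: *Ctsj* -7.69, *Prl7d1* -7.65, *Tpbpa* -7.03, *Prl3b1* -4.54, *Prl2c5* -4.33, *Prl2a1* -3.63, *Prl3d1* -3.505, *Syna* -2.96, *Serpinb9e* -2.18. Of 15 trophoblast regulators, 0 met it with a positive difference and 1 with a negative difference, and their median difference was -0.31. The muscle genes had positive differences: *Actc1* 5.63, *Acta1* 4.35, *Acta2* 3.73, *Cnn1* 1.98, *Tpm1* 1.32. Matrix genes went both ways, with *Thbs1* 3.34, *Col1a2* 1.15 and *Col3a1* -1.99. Other genes with positive differences were *Cd68* 1.11, *Lrp2* 1.06, *H19* 3.62, *Trh* 2.75, *Gap43* 2.58, *Nog* 2.28, *Pax6* 1.91, *Wnt9a* 1.89, *Wnt7b* 1.75, *Dppa3* 1.61, *Csf1* 1.33, *Tek* 1.22, *Otx2* 1.14, *Snap29* 1.11, *Snrpn* 1.103, *Cldn4* 1.08, *Krt18* 1.08, *Stx11* 1.06. Of these, *Snap29* is the gene disrupted in KO cells. Its KO value is RNA of the mutated gene, and the study reports that the protein was disrupted. Other genes with negative differences were *Trf* -1.36, *Apoa1* -4.58, *Cdh5* -3.46, *Hand2* -2.16, *Syp* -2.14, *Cyp26a1* -1.96, *Axin2* -1.69, *Wnt6* -1.65, *Snai1* -1.53, *Bmp4* -1.49, *Etv4* -1.26, *Gata2* -1.17, *Spry4* -1.14, *Inhbb* -1.12.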

How the results depend on the processing

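The counts of called genes depended on settings as follows, from 2548 higher and 1706 lower. Higher calls numbered 4008 with a filter of 0.1 FPKM, 4073 with no filter, 4350 with no fold threshold and 1273 at 4-fold. Lower calls numbered 1133 with TPM, 4663 with no fold threshold and 240 at 4-fold. Leaving out 1 library gave 2448 to 2588 higher and 1510 to 1841 lower. Members of any list gave 367 higher (362 to 371) and 164 lower (146 to 173), the latter 347 with no fold threshold and 43 at 4-fold. The differences from KO cells numbered 671, with 371 at a pseudocount of 1 and 489 to 1095 on leaving out 1 library, the most without day 14 WT replicate 3. TPM over genes of at least 200 bases, chosen after seeing the data, gave 2799 higher and 1330 lower. With the filter of 0.1 FPKM, calls higher came to 13 cardiac factors (from 5), 14 integrins (7), 10 yolk sac and liver genes (4), 8 macrophage genes (2), 8 neural progenitor genes (3), 7 FGF genes (3) and 6 endothelial genes (3). The cause of these shifts was not tested. A fit with a replicate block gave 2551 higher, 1718 lower and 546 differences from KO cells. Same-numbered WT libraries correlated at -0.01, 0.08 and 0.04 in their deviations from the mean of their day. Replicates 2 and 3 correlated best with their own number, and replicate 1 did not. Values this low cannot show whether equal numbers mark a shared culture or batch, so pairing was not settled. Of 167 called genes among 184 named, 151 kept their call under all 18 settings, 11 lost it without some library, and 0 of the 167 reversed. Sign changes of the named genes that were not called were not counted. The 3 libraries per group limit the precision of each value.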
